A study of Mus musculus with 12 samples.

Results

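Transcripts of 9 genes of B cells and plasma cells, of the 23284 genes in the FPKM table, were followed through RNA-seq libraries of sorted intestinal ILC3s: Cd79a, Cd79b, Ms4a1, Blk, Pax5, Pou2af1, Mzb1, Igj and Sdc1. They were picked by name as known genes of these cells, with earlier results of these data known. All 9 were found in the table, Mzb1 under its older symbol 2010001M09Rik, and 8 passed the filter for testing, set at 1 FPKM or more in 3 or more of the 12 libraries. Pax5 did not reach it. Ms4a1 and Blk reached it only with the ND LP libraries, the group where they are high, so their differences from that group are given as descriptions, with no test. FPKM is a read count scaled to transcript length and library depth.

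The 12 libraries formed 4 groups of 3. ILC3s (group 3 innate lymphoid cells) came from the intraepithelial layer (IEL) or the lamina propria (LP) of the small intestine of hairless HR-1 mice, whose age the labels give as 18 weeks. For PA milk, the pups' nursing mothers ate chow holding 8% palmitic acid by weight, and for ND the mothers ate normal chow. The study describes the PA milk pups as born to ND mothers and moved to these nursing mothers after birth. It describes no such move for ND pups. According to the study's methods the sort took cells without lineage markers that stained for Thy1.2, CD25, Nrp1 and CD4. The labels give replicate numbers but not which animals they stand for, so the p-values measure the spread between these libraries, which may be technical.

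B cells detect antigen with a membrane immunoglobulin that signals through the paired chains CD79A and CD79B, and mature B cells carry CD20, the product of Ms4a1. When they turn into plasma cells they lose CD20 and Pax5, take up syndecan-1 (Sdc1) and build a large secretory apparatus. In the intestine most plasma cells sit in the lamina propria and secrete IgA, whose dimers are joined by the J chain, encoded by Igj (now Jchain).

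Between 8.75 and 14.58 M reads were recovered per library, and between 4390 and 11378 genes reached 1 FPKM. PA IEL replicate 2 and PA LP replicate 2 stood apart with 4390 and 5637 genes, against 7863 to 11378 in the other 10 libraries, and the main values of the comparisons that use these libraries are also given without them. Id2, which all innate lymphoid cells need, was at 95.2 to 749.6 FPKM in all 12. Of the genes of the sort markers, Thy1 reached 1 FPKM in 7 libraries, Il2ra (CD25) in 8, Nrp1 in 10 and Cd4 in 11. Thy1 was listed at 0 in the other 5. Lyz2, a myeloid marker, was at 82.3 to 10380 FPKM in all 12. Epcam, an epithelial protein, was at 41.9 to 1133 FPKM in 11 libraries and at 0.196 in PA IEL replicate 2. Because these are bulk libraries, fewer cells of a type and less RNA per cell cannot be told apart.

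For the genes whose levels went together across libraries (Cd79a, Igj and Pou2af1) and for Sdc1, which did not follow them, the promoters are shown for comparison. Each is the RefSeq sequence of GRCm38.p6 from 250 bases before to 50 bases after the gene's start, 5′ to 3′ on the gene's strand. Capitals mark matches to CCCNNGGG, the core of the motif bound by the B cell factor Ebf1, on either strand.
Cd79a, chr7:24897247-24897546, plus strand: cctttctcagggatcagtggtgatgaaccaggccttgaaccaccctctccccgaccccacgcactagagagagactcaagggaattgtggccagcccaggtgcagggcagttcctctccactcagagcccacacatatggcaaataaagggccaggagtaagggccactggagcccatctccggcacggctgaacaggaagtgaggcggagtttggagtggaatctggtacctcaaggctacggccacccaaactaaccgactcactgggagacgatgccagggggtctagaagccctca
Igj, chr5:88527848-88528147, minus strand: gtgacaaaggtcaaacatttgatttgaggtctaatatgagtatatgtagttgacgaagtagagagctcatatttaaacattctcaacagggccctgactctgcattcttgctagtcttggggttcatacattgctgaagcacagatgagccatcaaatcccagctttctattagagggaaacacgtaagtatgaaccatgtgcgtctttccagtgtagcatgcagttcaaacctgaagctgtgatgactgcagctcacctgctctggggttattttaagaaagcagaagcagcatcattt
Pou2af1, chr9:51213440-51213739, plus strand: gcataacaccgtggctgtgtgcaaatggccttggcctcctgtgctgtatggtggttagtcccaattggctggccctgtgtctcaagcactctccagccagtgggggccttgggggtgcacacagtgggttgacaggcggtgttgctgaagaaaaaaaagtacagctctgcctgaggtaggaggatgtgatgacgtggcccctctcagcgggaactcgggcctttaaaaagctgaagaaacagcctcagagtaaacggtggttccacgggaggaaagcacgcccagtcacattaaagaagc
Sdc1, chr12:8771146-8771445, plus strand: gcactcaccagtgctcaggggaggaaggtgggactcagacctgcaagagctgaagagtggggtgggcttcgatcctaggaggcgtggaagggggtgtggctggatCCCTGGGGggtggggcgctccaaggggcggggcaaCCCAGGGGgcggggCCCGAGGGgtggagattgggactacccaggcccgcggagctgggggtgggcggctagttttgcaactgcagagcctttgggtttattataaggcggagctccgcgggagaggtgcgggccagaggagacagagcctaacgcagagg
The core was found in the Sdc1 promoter, at bases -145 (CCCTGGGG), -110 (CCCAGGGG) and -96 (CCCGAGGG) counted from the start. It was not in these windows of Cd79a, Igj, Pou2af1 or Pax5. Only exact matches to this core were counted, so a window without one may still hold a site that departs from it. Binding of Ebf1 was not tested. Of 32851 mouse promoters of this length, 13.7% held it. The octamer ATGCAAAT, bound by Oct factors together with the product of Pou2af1, was in none of these 5 windows on either strand, and in 1.74% of all promoters. Promoters of Cd79b, Ms4a1 and Blk were not analysed here.

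Cd79a (chromosome 7, bases 24897381 to 24902197 in GENCODE vM21 on GRCm38) was at 608.1, 22.7 and 99.5 FPKM in ND LP replicates 1 to 3 and at 0, 0.0815 and 127.8 in PA LP. In IEL it was at 17.3, 0 and 29.1 in ND and at 245.9, 0 and 0.0705 in PA milk. The gene was thus above 17 FPKM in 7 libraries and at 1 read or none in the other 5, and every group other than ND LP held both kinds of library.

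Cd79b (chromosome 11, 106311341 to 106314762) codes for the partner chain of CD79A. It was at 115.1, 40.5 and 33.4 FPKM in ND LP, 0, 146.2 and 19.4 in PA LP, 15.5, 52.4 and 14.6 in ND IEL and 41.8, 139.3 and 10.8 in PA IEL. PA LP replicate 1 was the single library in which it was listed at 0. Its 2 highest values came from PA LP replicate 2 and PA IEL replicate 2, where Cd79a had 1 read and none, and across the 12 libraries the log2 levels of the partner chains had a Pearson r of 0.18.

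Ms4a1 (chromosome 19, 11249675 to 11266241) was at 138.2, 4.44 and 12.8 FPKM in ND LP, from 3549, 104 and 246 reads. In each of the other 9 libraries it had at most 1 read: none in PA LP, ND IEL replicates 1 and 2 and PA IEL replicates 1 and 2, and 1 in ND IEL replicate 3 and in PA IEL replicate 3. Up to 3 reads are taken here as a floor, at or under which levels have no order, and Ms4a1 was above it in ND LP and in no other group. An antisense gene, 4930526L06Rik, overlaps it, and the libraries keep no strand, so reads of the overlap cannot be assigned to one of them.

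Blk (chromosome 14, 63372836 to 63417037) codes for a Src family kinase of the B cell receptor pathway. It was at 19.3, 10.4 and 6.24 FPKM in ND LP, at 0, 0 and 3.10 in PA LP, at 0, 0 and 0.630 in ND IEL and at 7.71, 0 and 0 in PA IEL. The ND LP libraries were above both other sets they are compared with, PA LP and ND IEL, without overlap.

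Pou2af1 (chromosome 9, 51213708 to 51240080) codes for the coactivator OBF-1, which B cells need to form germinal centres. It was at 79.5, 5.65 and 37.6 FPKM in ND LP and 0, 0.0387 and 29.5 in PA LP, and at 6.69, 0 and 13.8 in ND IEL and 113.5, 0.0309 and 0 in PA IEL. These are the same 7 high and 5 low libraries as for Cd79a. Pax5 (chromosome 4, 44524757 to 44710487), the factor that keeps B cells in their lineage, was listed at 0 in all 12 libraries, also in ND LP, where Ms4a1 was present, and it was not tested.

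Mzb1, a chaperone of immunoglobulin assembly in the endoplasmic reticulum, was at 248.5, 16.4 and 124.3 FPKM in ND LP, 0.335, 0 and 309.9 in PA LP, 42.1, 30.8 and 89.6 in ND IEL and 669.4, 0 and 22.5 in PA IEL. The 0.335 FPKM of PA LP replicate 1 stood for 3 reads, the floor. In contrast with Cd79a, Mzb1 was above the floor in all 3 ND IEL libraries.

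Igj (chromosome 5, 88519809 to 88527891) spanned the widest range of the 9 genes. It was at 614.2, 1086 and 6584 FPKM in ND LP, 11.1, 1.44 and 7591 in PA LP, 1395, 1.40 and 3468 in ND IEL and 17871, 1.19 and 1.42 in PA IEL. In PA IEL replicate 1 it ranked 1 among all genes, with 330862 reads. The 4 lowest libraries, ND IEL replicate 2, PA IEL replicates 2 and 3 and PA LP replicate 2, had 34, 31, 34 and 30 reads.

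Sdc1 (chromosome 12, 8771323 to 8793715), which plasma cells and epithelial cells both carry, was at 0.0253, 70.5 and 85.3 FPKM in ND LP, 8.96, 0 and 67.5 in PA LP, 77.7, 1.81 and 52.8 in ND IEL and 234.6, 11.3 and 95.0 in PA IEL. ND LP replicate 1, which had the highest Cd79a and Ms4a1, held 1 read of Sdc1. PA IEL replicate 3, which had 34 reads of Igj, held 3428 of Sdc1.

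**Figure D1:**
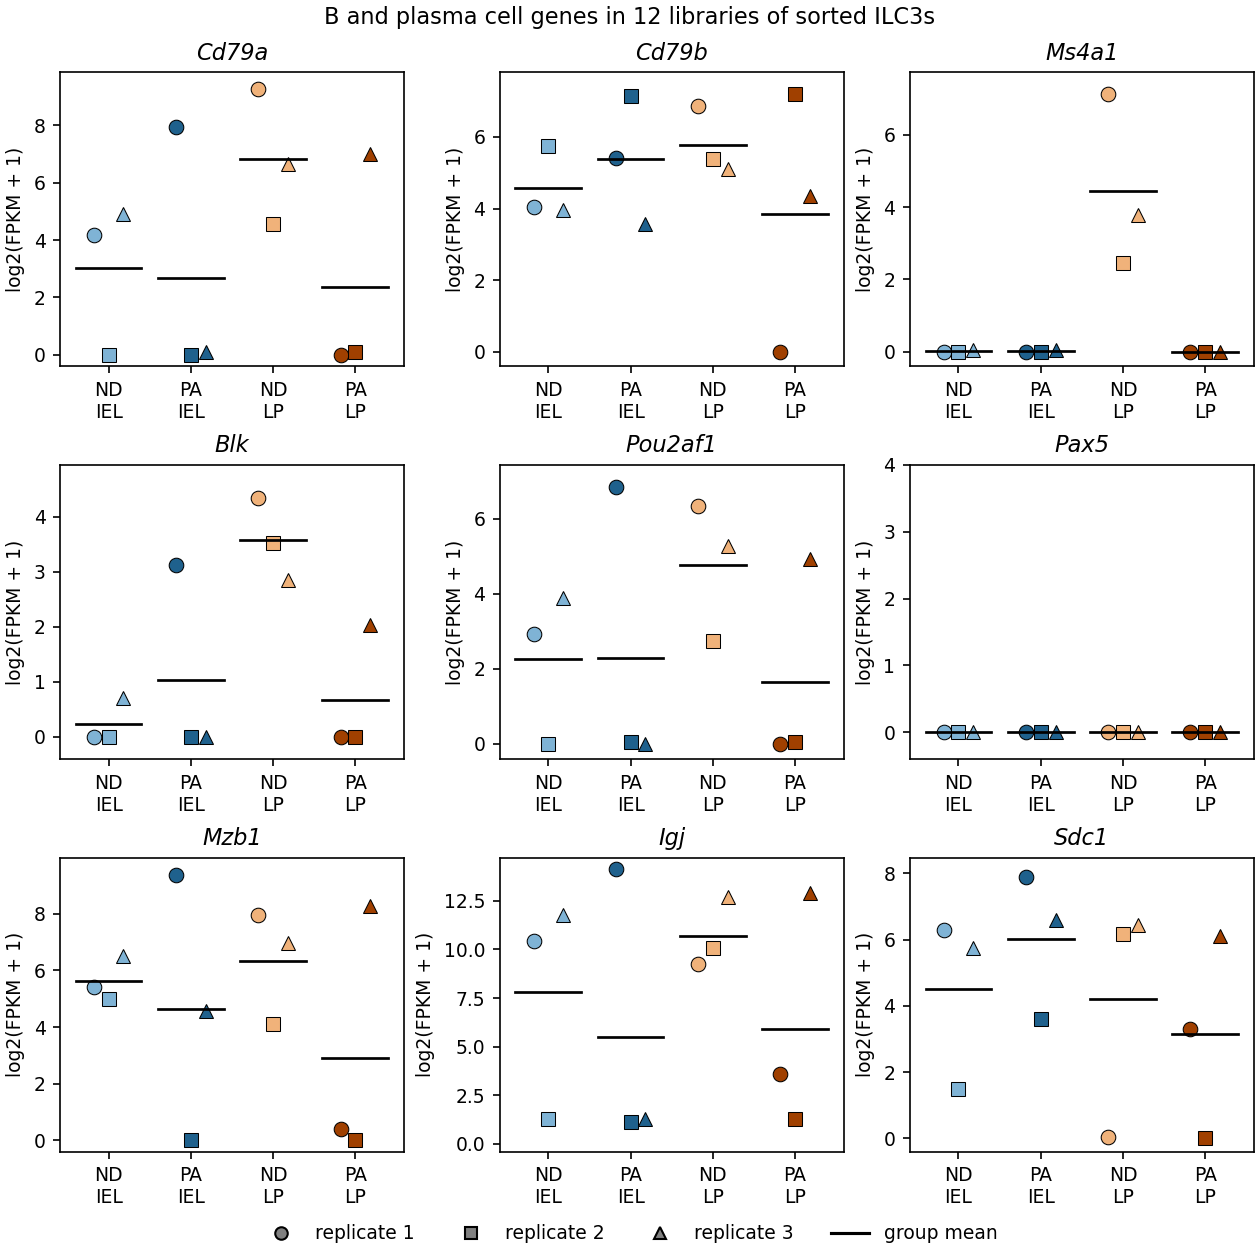
Level of each of the 9 genes as log2(FPKM + 1) in the 12 libraries, by diet and layer. Each point is 1 library, its shape gives the replicate number, and the bar is the mean of 3 libraries. Ms4a1 was above 0.1 FPKM in the 3 ND LP libraries alone, Pax5 was listed at 0 throughout, and in the PA LP column replicate 3 carries most of the signal of Cd79a, Blk, Pou2af1, Mzb1, Igj and Sdc1.

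The number of the 9 genes above the floor of 3 reads separated the PA LP libraries from each other. It was 7, 8 and 8 in ND LP, 2, 2 and 7 in PA LP, 6, 4 and 7 in ND IEL and 7, 3 and 4 in PA IEL. In PA LP replicate 1 these were Igj and Sdc1, in a library with 8406 genes at 1 FPKM or more, and in PA LP replicate 2 Cd79b and Igj. As a share of all FPKM, the 9 genes made up 0.232%, 0.177% and 0.978% in ND LP and 0.0028%, 0.0193% and 1.08% in PA LP. In IEL the shares were 0.217%, 0.00975% and 0.506% in ND and 3.13%, 0.0196% and 0.0153% in PA milk. Libraries of every group other than ND LP therefore fell on both sides of 0.1%.

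Within the libraries that held Cd79a, the balance between Igj and the genes of earlier B cells varied. The ratio of Igj to Cd79a in FPKM, which is per length, was 47.8 and 66.2 in ND LP replicates 2 and 3, 59.4 in PA LP replicate 3, 80.6 and 119.3 in ND IEL replicates 1 and 3 and 72.7 in PA IEL replicate 1. In ND LP replicate 1 it was 1.01, and this library also had the highest Ms4a1. PA IEL replicate 1, with the highest Igj, Mzb1, Pou2af1 and Sdc1, had no read of Ms4a1. Both extremes are single libraries.

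**Figure D2:**
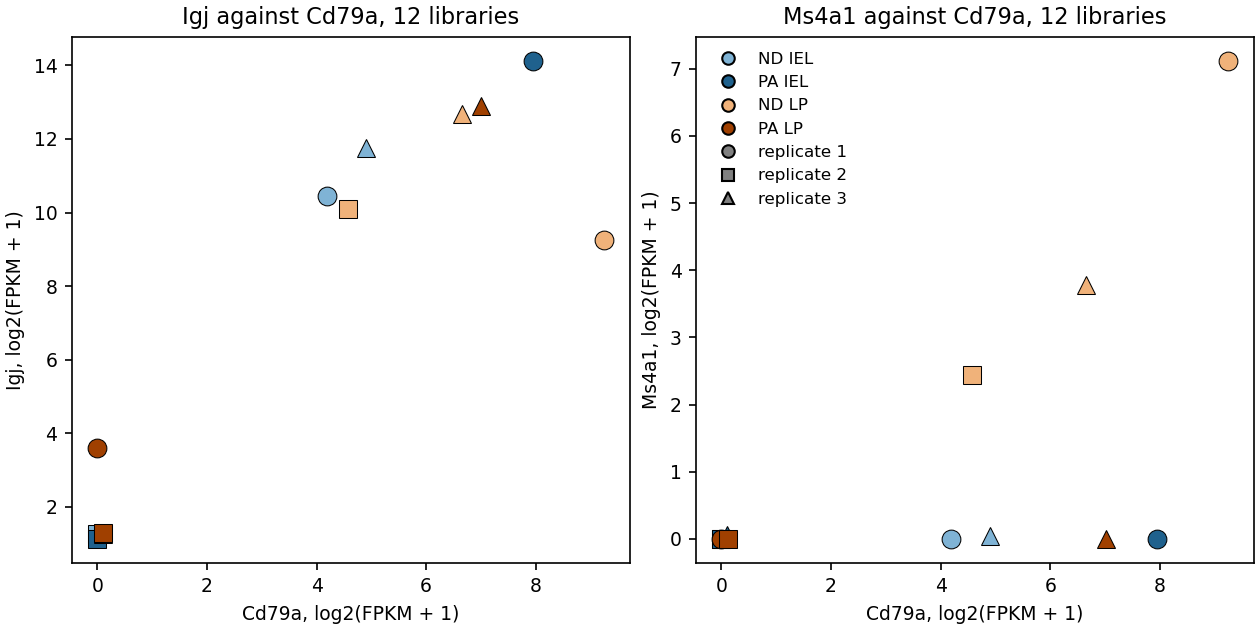
Igj (left) and Ms4a1 (right) against Cd79a, all as log2(FPKM + 1), with 1 point for each of the 12 libraries, colour for the group and shape for the replicate. The 5 libraries with at most 1 read of Cd79a lie at the left, where PA LP replicate 1 is above the others for Igj (11.1 FPKM). Igj was high in all of the other 7 libraries, and Ms4a1 in 3 of these 7, the ND LP libraries.

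PA milk was compared with ND in the LP to ask whether the milk diet went with a change of these transcripts in the layer where plasma cells normally sit. All 8 tested genes had a lower mean in PA LP than in ND LP, with log2 fold changes on the log2(FPKM + 1) scale from -4.75 to -1.07 and a median of -3.28. Over all 12502 genes tested the median was -0.36. None of the 8 passed an adjusted p-value of 0.05 in limma, as did 0% of all genes tested (588 genes had an unadjusted p-value under 0.05, and voom also called 0), so the lower means of this list are a description. The 6 genes that reached the filter without the ND LP libraries were all lower too, from -4.75 to -1.07.

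Ms4a1 and Blk lay below the ND range in all 3 PA LP libraries. The log2 fold change of Ms4a1 was -4.45 (SE 0.98) and that of Blk was -2.89 (SE 1.01). With no filter on low values, the adjusted p-values by limma were 0.601 for Ms4a1 and 0.896 for Blk. Against the floor of 3 reads per library in PA LP, a mean of 0.141 FPKM, Ms4a1 with its ND LP mean of 51.8 ± 75.0 FPKM (SD, n = 3) was at least 367.8-fold lower in PA milk. This bound rests on ND LP replicate 1, since without it the ND LP mean was 8.62 FPKM and the bound 61.2-fold. Of all genes tested, 6.6% had all 3 PA LP values below all 3 ND LP values and 4.04% were lower at an unadjusted p-value under 0.05, and nothing is read from these shares about genes that needed the ND LP libraries to be tested.

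The 6 other tested genes overlapped between the diets in LP. Their log2 fold changes were -4.75 for Igj (SE 3.34), -4.45 for Cd79a (SE 2.25), -3.45 for Mzb1 (SE 2.17), -3.12 for Pou2af1 (SE 1.91), -1.93 for Cd79b (SE 1.48) and -1.07 for Sdc1 (SE 1.90). The value of Cd79b rested on PA LP replicate 1, without which it was -0.0032. In Igj and Mzb1, PA LP replicate 3 was above all 3 ND LP libraries, while replicates 1 and 2 were below them. Without PA LP replicate 3 the median over the 8 genes was -4.60, and without the 2 libraries with few genes, PA IEL and PA LP replicate 2, it was -2.49, where Sdc1 was at 0.50 and the other 7 stayed lower. Without replicate 2 of both PA groups, the value of Ms4a1 was again -4.45 and that of Blk was -2.55.

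In the IEL, PA milk and ND differed in no consistent direction for these genes. Of the 8 tested, 5 had a higher and 3 a lower mean in PA milk, with a median log2 fold change of 0.01 against -0.30 over all genes. The 5 include Ms4a1, whose levels in IEL were under the floor and have no order. Of the 6 genes that reached the filter without the ND LP libraries, 3 were higher and 3 lower, with a median of -0.17. The values ran from -2.31 for Igj (SE 3.34) to 1.52 for Sdc1 (SE 1.90), with Cd79a at -0.35 (SE 2.25) and Cd79b at 0.79 (SE 1.48). None had an unadjusted p-value under 0.05, and 0% of all genes tested passed the adjusted threshold (447 genes had an unadjusted p-value under 0.05, and voom also called 0). PA IEL replicate 1 was above every ND IEL library for Cd79a, Blk, Pou2af1, Mzb1, Igj and Sdc1, and replicates 2 and 3 were both below the ND IEL mean for all of these but Sdc1. Without replicate 2 of both PA groups the median over all 8, Ms4a1 included, became 1.07.

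Whether the diet effect differed between the layers was tested as LP effect minus IEL effect in the same fit. It was negative for all 8 genes, with a median of -2.92 against -0.03 over all genes. Ms4a1 and Blk were tested only through the ND LP libraries, so their signs are descriptions. The 6 genes that reached the filter without these libraries were also all negative, with a median of -2.65. Ms4a1 was at -4.45 (SE 1.38) and Blk at -3.70 (SE 1.43), which with no filter had adjusted p-values of 0.969 and 0.969 by limma. Without replicate 2 of both PA groups the median of the 8, Ms4a1 and Blk included, was -3.48, and all 8 were again negative. No gene of the whole table passed the adjusted threshold (0% called, with 292 at an unadjusted p-value under 0.05, and 0 called by voom), and 1.42% were lower at the unadjusted one.

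Within ND mice, LP was compared with IEL. Of the 8 tested genes, 7 had the higher mean log2(FPKM + 1) in LP, with a median log2 difference of 2.68 against 0.09 over all genes. The exception, Sdc1, had means in FPKM of 51.9 in LP and 44.1 in IEL. Ms4a1 was 4.43 higher in LP on this log2 scale (SE 0.98) and Blk 3.34 higher (SE 1.01), with every LP library above every IEL library for both. With no filter, the adjusted p-values by limma were 0.285 for Ms4a1 and 0.546 for Blk. Of all genes tested, 9.34% had every LP library above every IEL library and 3.64% were higher in LP at an unadjusted p-value under 0.05, with nothing read from these shares for Ms4a1 and Blk. None of the 8 passed the adjusted threshold, which 0.032% of all genes did.

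The other 6 genes overlapped between the layers of ND mice, with a median difference of 1.85. The differences were 3.79 for Cd79a (SE 2.25), 2.86 for Igj (SE 3.34), 2.50 for Pou2af1 (SE 1.91), 1.19 for Cd79b (SE 1.48), 0.71 for Mzb1 (SE 2.17) and -0.30 for Sdc1 (SE 1.90). The difference in Igj rested on ND IEL replicate 2, with its 34 reads, and was -0.42 without it. With libraries weighted by their quality, limma put Ms4a1 (3.71, adjusted p = 0.00469) and Blk (3.07, adjusted p = 0.0140) past the threshold in this comparison, as it did 6.34% of all genes, and voom with such weights, which put 2.97% past it, did so for Ms4a1 alone. Both genes had been tested only through the ND LP libraries, so these calls are no support for a difference.

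Within PA milk mice LP was also compared with IEL. The median over the genes had no stable direction there, running from -2.45 to 0.65 over the alternative settings. Of the 8 genes, 1 (Igj, 0.42) had the higher mean log2(FPKM + 1) in LP and 7 the lower. In FPKM the mean of Igj was lower in LP, at 2535 against 5958 in IEL. The median over the 8 was -0.50 against 0.03 over all genes, and none had an unadjusted p-value under 0.05. The 7 include Ms4a1 (-0.02), whose levels here were under the floor and have no order. Of the 6 genes that reached the filter without the ND LP libraries, 1 was higher and 5 lower, with a median of -1.08. Without replicate 2 of both PA groups the median over all 8, Ms4a1 included, was -0.75, with 1 higher and 7 lower. The largest difference was that of Sdc1 (-2.89, SE 1.90, unadjusted p = 0.148 and adjusted p = 0.618 by limma). Over all genes, 0.144% passed the adjusted threshold. Ms4a1 was at or under 1 read in all 6 PA milk libraries, so that no fold can be given for it.

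**Figure D3:**
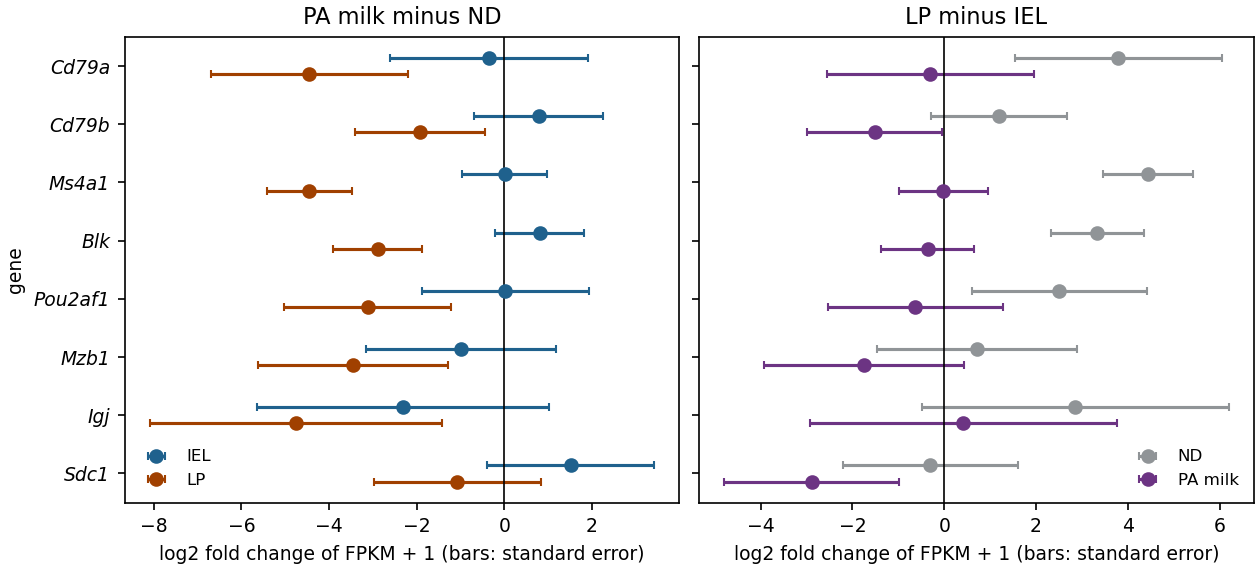
Log2 fold changes with standard errors of the 8 tested genes from limma on log2(FPKM + 1), 3 libraries a group. Left, PA milk minus ND in IEL and LP, where all 8 LP values are below 0 and IEL values lie from -2.31 to 1.52. Right, LP minus IEL in ND and in PA milk, where the ND value of Ms4a1 (4.43) is the highest and that of Sdc1 (-0.30) is below 0. Ms4a1 and Blk were tested only through the ND LP libraries.

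The genes did not move as 1 block. Across the 12 libraries, and as a description only since the points share their depth and group, log2 levels of Cd79a had a Pearson r of 0.99 with Pou2af1, 0.90 with Igj, 0.86 with Blk and 0.85 with Mzb1. Ms4a1 had r = 0.76 with Blk, 0.60 with Cd79a and 0.29 with Igj. Sdc1 had r = 0.58 with Igj and -0.30 with Ms4a1, and Cd79b ranged from -0.36 to 0.32 with the others.

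The 10 genes most like the mean of the members other than Sdc1 over the 12 libraries were Fcgr2b, Tirap, Gm6377, AI987944, Lax1, Arhgap6, Dtx1, Jmy, Derl3 and B230206F22Rik, with r from 0.96 to 0.91. Fcgr2b, the inhibitory Fc receptor of B cells, was at 34.9, 10.8 and 15.3 FPKM in ND LP and 0, 0.0762 and 6.41 in PA LP. Derl3, which serves protein degradation at the endoplasmic reticulum, was at 129.9 FPKM in PA IEL replicate 1, 60.5 in PA LP replicate 3 and 0 in the other 4 PA milk libraries. The 5 genes most like Igj were 1700052K11Rik, Sgsm3, Fam53c, Lax1 and Dtx1 (r of 0.97 to 0.96), and those most like Sdc1 were Csrp2bp, Agap3, Brap, Slc11a2 and Hs1bp3 (r of 0.92 to 0.90). The first 10 and the 5 most like Igj share Lax1 and Dtx1, and neither set shares a gene with that of Sdc1.

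Other B cell surface genes showed the same side in LP. Of 18 listed, 14 were tested, and all 14 had a lower mean in PA LP than in ND LP, with a median log2 fold change of -2.19, where 62.2% of all genes tested were lower. With replicate 2 of both PA groups left out, 13 of the 14 were lower, with a median of -1.85. None passed the adjusted threshold, and 7, against 4.04% of all genes, had an unadjusted p-value under 0.05. Among them were Cxcr5, Cd37, Siglecg, Ms4a4c and Fcrl1, named here after their values were seen. Cd22 was also among them but reached the filter only with the ND LP libraries, so its value is no test. Of the 14, 12 reached the filter without the ND LP libraries, and 5 of these 12 had such a p-value, so counts over the 14 are descriptions. Cxcr5, the chemokine receptor that leads B cells into follicles, was at 25.0, 6.46 and 21.0 FPKM in ND LP and 0, 0 and 0.0380 in PA LP (log2 fold change -4.00, SE 1.19). Siglecg, an inhibitory lectin of B cells, was at 62.3, 2.29 and 4.74 in ND LP and listed at 0 in all 3 PA LP libraries (-3.41, SE 1.10). The 5 genes of this list at the highest mean level, Cd37, Ly86, Tnfrsf13b, Cd72 and Tnfrsf13c, ranged from -3.45 (Cd37) to -0.18 (Cd72), and Cd37 was at -1.83 without replicate 2 of both PA groups. In the IEL 8 of the 14 were higher and 6 lower in PA milk, with a median of 0.36.

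**Figure D4:**
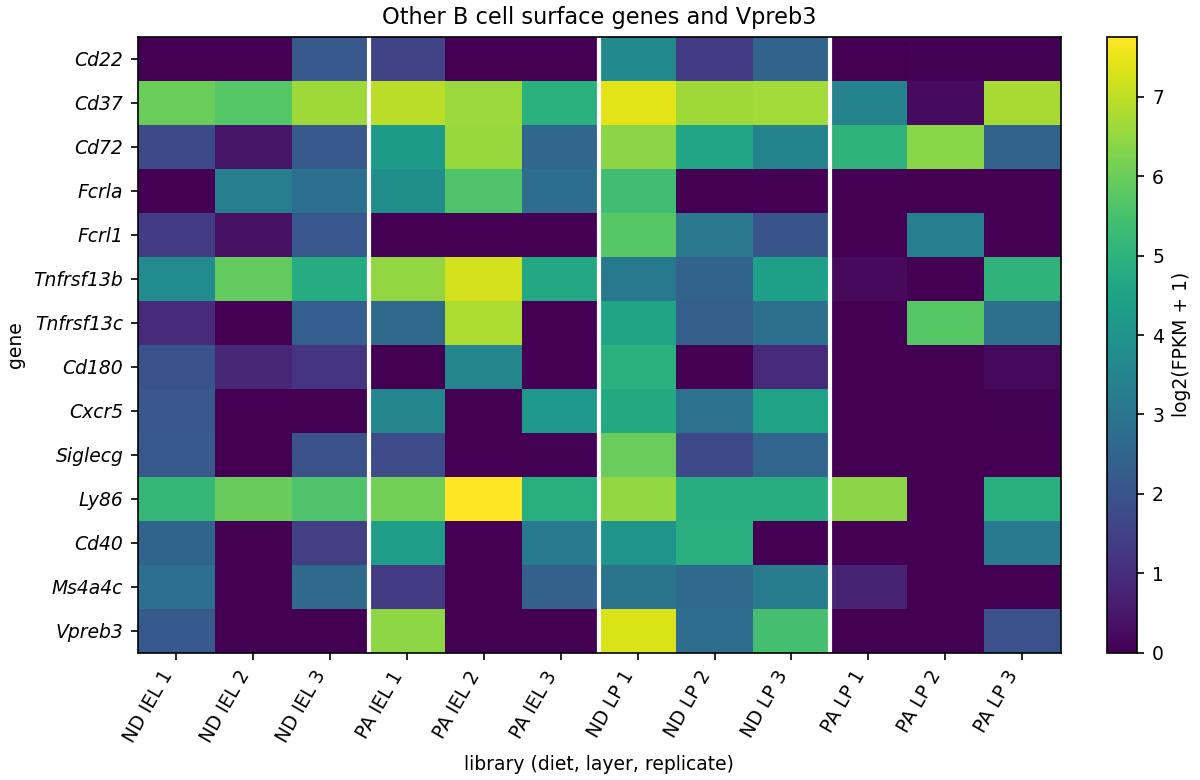
Tested B cell surface genes other than the 9 members, and Vpreb3, as log2(FPKM + 1) in the 12 libraries, with white lines between groups. Cd22, Cxcr5 and Siglecg are dark in all 3 PA LP libraries and lit in all 3 ND LP libraries, while Cd72 and Tnfrsf13c are bright in PA LP replicate 2. Cd22 was tested only through the ND LP libraries.

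Genes inside the B cell receptor pathway and its transcription factors were shared more evenly between directions. Of 14 signalling genes, 3 were higher and 11 lower in PA LP, with a median of -0.91 and none at an unadjusted p-value under 0.05. Of the 13 that reached the filter without the ND LP libraries, 3 were higher and 10 lower, with a median of -0.73. The 5 at the highest level, Bcl10, Dapp1, Lyn, Blnk and Plcg2, are used by other leukocytes too. Of 11 tested transcription factors, 2 were higher and 9 lower, with a median of -1.01, and Spib alone had an unadjusted p-value under 0.05 (-3.18, SE 1.39). Spib, named after its value was seen, was at 21.3, 14.3 and 1.19 FPKM in ND LP and listed at 0 in all 3 PA LP libraries. Id3, Irf8, Spi1, Tcf3 and Mef2c were the 5 at the highest level, none of them restricted to B cells. Ebf1, the factor whose motif core was searched above, was at 21.1, 28.3 and 7.61 FPKM in ND LP and 17.7, 0 and 35.0 in PA LP, while in ND IEL it did not exceed 0.379.

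Of 17 other plasma cell genes, 4 were higher and 13 lower in PA LP, with a median of -0.95 and none at an unadjusted p-value under 0.05. The 5 at the highest level were Xbp1, Sec11c, Txndc5, Creld2 and Itm2c. Xbp1, the factor that drives secretory expansion and that many secretory cells use, was at 329.1, 387.2 and 533.5 FPKM in ND LP and 383.9, 0.286 and 586.5 in PA LP. Its PA LP libraries 1 and 3 thus lay within or above the ND range, although replicate 1 had 3 reads of Mzb1. Txndc5 was highest in PA IEL replicate 1 (985.4 FPKM), as Igj was. Without replicate 2 of both PA groups, 9 of the 17 plasma cell genes were higher and 8 lower in PA LP, with a median of 0.05. In the same setting the median was -0.39 for the signalling genes, with 10 of 14 lower, and -0.44 for the transcription factors, with 7 of 11 lower. The lower medians of these 3 lists thus moved towards 0 without that library.

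Of 10 germinal centre genes 6 were tested, 1 higher and 5 lower in PA LP, with a median of -0.94 (-0.43 without replicate 2 of both PA groups) and none at an unadjusted p-value under 0.05. Without the ND LP libraries 5 of the 6 reached the filter, 1 higher and 4 lower, with a median of -0.945. The 5 at the highest level were Basp1, Fas, Ung, Mki67 and S1pr2. Among 20 immunoglobulin and surrogate light chain genes 4 were matched and 1, Vpreb3, was tested. Heavy and light chain constant genes were not analysed here. Vpreb3 was at 158.5, 5.81 and 43.3 FPKM in ND LP and 0, 0 and 2.78 in PA LP (log2 fold change -4.54, SE 1.66, unadjusted p = 0.0149 and adjusted p = 0.979 by limma), and at 85.7 in PA IEL replicate 1. Pigr, the epithelial receptor that carries IgA with its J chain across the epithelium, was at 192.7, 44.7 and 194.3 FPKM in ND LP and 13.7, 89.4 and 10.9 in PA LP (-2.25, SE 1.03, adjusted p = 0.979 by limma).

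In ND mice, 11 of the 14 B cell surface genes, 8 of the 14 signalling genes, 8 of the 11 transcription factors and 10 of the 17 plasma cell genes had the higher mean in LP. Medians of the log2 differences were 1.71, 0.14, 0.74 and 0.39. Some of the surface and signalling genes reached the filter only with the ND LP libraries, so their counts are descriptions. Of those that reached it without these libraries, 9 of 12 surface genes and 7 of 13 signalling genes were higher in LP. Their medians were 1.39 and 0.11. None passed the adjusted threshold. Those higher at an unadjusted p-value under 0.05 by limma, as 3.64% of all genes tested were, included Cxcr5 (3.32), Cd72 (3.37) and Ebf1 (3.99). These were named after their values were seen. Bank1 (3.33 higher) reached the filter only with the ND LP libraries, so its difference is a description with no test. Vpreb3 was 4.45 higher.

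Markers of other cells also differed between the groups, not always in the direction of these genes, and their part in the results was not tested. Of 9 tested genes of lymphoid follicle stroma, 3 passed the adjusted threshold as higher in LP of ND mice by limma: Madcam1 (log2 difference 9.91, adjusted p = 0.0130), Ccl21a (6.85, adjusted p = 0.0449) and Clu (6.84, adjusted p = 0.0449). None of these calls held with no filter on low values (adjusted p = 0.0816, 0.110 and 0.0816), and none held without ND LP replicate 2 or without ND LP replicate 3. Ccl21a reached the filter only through ND LP, so its call is no test. Ccl21a, a chemokine of lymphoid tissue, was at 19.4, 168.4 and 518.2 FPKM in ND LP and listed at 0 in all 3 PA LP libraries, as Ms4a1 was. Madcam1 was at 449.9, 958.9 and 3765 FPKM in ND LP and at 1269, 49.7 and 1641 in PA LP, so this stromal gene stayed high in PA LP replicates 1 and 3.

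Summed levels of the marker lists were compared between ND LP and PA LP. The 20 ILC3 and sort markers summed to 994.2 to 5551 FPKM in ND LP and 218.1 to 619.6 in PA LP, with 17 of 20 lower, and among them Thy1, a sort marker, was listed at 0 in PA LP replicates 1 and 2 and in ND LP replicate 1. The 14 epithelial markers summed to 3340 to 7011 and 447.3 to 2521 FPKM, with 14 of 14 lower. The 9 tested T cell markers summed to 178.4 to 288.5 and 0.325 to 325.6 FPKM, with 8 lower, and Cd3e was at 0 in PA LP replicate 2. The 14 macrophage, dendritic cell and neutrophil markers summed to 1171 to 13618 and 1331 to 6948 FPKM, with 10 higher and 4 lower. Of 9 tested plasmacytoid dendritic cell markers all 9 were lower, with sums of 459.8 to 1223 and 157.0 to 392.2 FPKM. Of 10 genes of MHC class II presentation, which B cells also use, 8 were lower. These counts stand beside the 62.2% of all genes tested that were lower and the 37.4% that were higher in PA LP. Without replicate 2 of both PA groups, 14 of the 20 ILC3 and sort markers, 14 of the 14 epithelial, 6 of the 9 T cell, 8 of the 9 plasmacytoid dendritic cell, 7 of the 10 MHC class II and 7 of the 14 myeloid markers were lower.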

How the data were processed

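RNA of sorted ILC3s was measured in 12 libraries (SMART-Seq v4 cDNA, amplified by PCR, without molecular identifiers or strand). Per the labels and methods, the authors mapped reads to mm10, and their processing notes list TopHat2 2.1.1, Bowtie2 2.2.8.0, SAMtools 0.1.18, Cufflinks 2.2.1 and Cuffdiff 2.2.1. The authors deposited FPKM per gene and a table of counts divided by size factors, a scaled signal with library totals of 9376529 to 11710874. Reads were recovered from both tables through the step between low values, of which 90.4% to 98.1% lay within 0.05 of a whole read. The floor of 3 reads covers counting error only. An exact 0 in the FPKM table can also be a failed estimate.

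Log2(FPKM + 1) of the 12502 genes with 1 FPKM or more in 3 or more libraries was fitted with limma 3.58.1 (R 4.3.3, mean-variance trend, 12 libraries, 4 group means), with Benjamini-Hochberg adjustment over all genes tested and a threshold of 0.05. Fold changes, and the higher or lower means counted for members and lists, are on this scale. It understates changes of low genes, and means in FPKM can go the other way. The study names no test for its RNA-seq. Values of members that reached the filter only through the ND LP libraries are descriptions, whatever the fit gave. Alternatives were a pseudocount of 0.1, no filter or a filter of 6 libraries, upper quartile and median of ratios scaling, the libraries of a contrast alone, the replicate number as a block, voom with quality weights on the scaled signal, sample quality weights, leaving out each library, and leaving out replicate 2 of both PA milk groups. Scripts (Python 3.11.15, numpy 2.4.6, pandas 2.3.3, scipy 1.17.1, matplotlib 3.10.9) were tested on simulated data.

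The members and lists were chosen with earlier results of these data known. Of the other lists, the 5 genes at the highest mean FPKM and those past the threshold are named. The genes most like the members are the 10 non-member genes with the highest Pearson correlation with the mean of the standardised levels of the tested members other than Sdc1, and the 5 most like Igj and Sdc1. Gene positions were taken from GENCODE vM21 (GRCm38) and promoters from RefSeq for GRCm38.p6, which matched 5 of the members. Columns of the count table were used for depth and voom. For 2 other genes no value is reported here; list counts and fits include them.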

Additional observations from a re-analysis of the deposited data

How the results depend on the processing

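With 3 libraries a group and members that are either high or near 0, limits are set by single libraries. Over 22 settings the 8 members had a median log2 fold change of -5.17 to -2.42 for PA milk in LP and of 1.23 to 3.44 for LP against IEL in ND, with 6 to 8 members lower and 5 to 8 higher, where 6 members were left by the filter of 6 libraries, which Ms4a1 and Blk did not reach. In IEL the median for PA milk ran from -1.25 to 1.07 and in PA milk the median for LP against IEL from -2.45 to 0.65, so neither has a stable direction. No member passed the adjusted threshold for a diet effect in either layer or for their difference under any setting, and adjusted p-values of Ms4a1 in LP ran from 0.0938 to 0.944. For LP against IEL in ND, 1 member passed with voom (Ms4a1, 7.97, adjusted p = 0.00693), beside 371 of all genes, and 2 with sample quality weights (Ms4a1 and Blk), beside 793. The cause was not tested.

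Signs changed for Sdc1, Mzb1 and Igj. For PA milk in LP, Sdc1 was at 0.50 without replicate 2 of both PA milk groups, and from -3.16 to 0.50 with single libraries left out (0.04 without ND LP replicate 3), and Cd79b ran from -3.60 to -0.0032. For LP against IEL in ND, Mzb1 was at -0.20 with voom and -0.10 with sample quality weights, and from -0.10 (without ND LP replicate 1) to 1.83 with single libraries left out. There Igj ran from -0.42 to 4.82 and Sdc1 from -1.82 to 1.78 (0.59 and 0.32 without ND IEL replicates 1 and 3). Madcam1, Clu and Ccl21a lost their calls in several settings, with adjusted p-values of up to 0.492, 0.320 and 0.260. Without ND LP replicate 2, for example, Madcam1 was at an adjusted p-value of 0.0614. Counts of genes called over all genes ranged from 0 to 793 (LP against IEL in ND, 4 in the reported fit), 0 to 314 (in PA milk, 18 in the reported fit), 0 to 8 (PA milk in LP, 0 in the reported fit) and 0 to 1 (in IEL and for the difference). Same-numbered IEL and LP libraries of one diet had correlations of their deviations from -0.031 to 0.060. Those of one diet with different numbers ran from -0.077 to 0.134, so the numbers do not establish pairs. With the replicate block, the median for PA milk in LP was -3.28 and no call of a member changed, while Madcam1, Clu and Ccl21a lost theirs (adjusted p = 0.0976, 0.169 and 0.169).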
